A study of Mus musculus with 15 samples.

Results

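The genes described here are 7 genes of arginine metabolism in mouse lung: Slc7a2, Arg1, Arg2, Nos2, Ass1, Odc1 and Sat1. They were found through the probes of an Agilent array whose RefSeq accession maps to each gene, which gave 10 of 55681 probes and 7 of 20660 genes with a symbol. All 10 probes passed the filter on dim probes and were well above background in all 15 samples. The lungs came from female C57BL/6 mice, 7 to 8 weeks old, exposed on 4 days and sampled 24 h after the last exposure. In 4 samples, rod-like carbon nanotubes (rCNT) had been given by oropharyngeal aspiration: the mouse breathes in a suspension pipetted into its throat, here 10 µg of rCNT daily. The vehicle was 50 µl of phosphate-buffered saline (PBS). Another 4 samples had received the vehicle alone by the same route. In 3 samples the mice had breathed an rCNT aerosol of 6.2 to 8.2 mg per m3 for 4 h per day, and 4 samples came from untreated mice, the controls for inhalation. The question was how the response of the lung differs between these routes of exposure.

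Arginine enters the cell through cationic amino acid transporters and is then drawn on by competing enzymes. Nitric oxide synthases turn it into nitric oxide and citrulline, arginases split it into ornithine and urea, and ornithine feeds the synthesis of polyamines and proline. In macrophages, Nos2 is the textbook marker of activation by interferon gamma and microbial products, and Arg1 that of activation by interleukins of the type 2 response. In the lung, Nos2 and the arginases are also made by epithelial and other resident cells.

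Levels are given as log2 of the background-corrected and quantile-normalised intensity of the brightest probe of each gene, and a change of 1 on this scale is a 2-fold change. Changes were tested with limma over 25317 genes and transcripts, with Benjamini-Hochberg adjustment over all of them and a threshold of 0.05. Replicates of a group correlated at 0.994 to 0.998 over all genes. All aspiration samples lay on 1 slide and all inhalation samples on the 2 others, so route, slide and kind of control cannot be told apart. Dose went with route as well: 10 µg was given daily by aspiration, while for inhalation only the aerosol concentration and the hours are known here. A difference between the routes therefore cannot be told apart from a difference in dose. For untreated replicate 1 the labels conflict, since its title speaks of PBS aspiration and the rest of an untreated animal, so each result was also computed without it. The array files of the inhalation and untreated samples name pools, and what was pooled is not given in the sources used here, so the p-values reflect the scatter of these samples only, and part of that scatter may be technical. In whole lung, fewer cells of a type and less RNA per cell cannot be told apart.

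After aspiration of rCNT, 7 of 7 genes were higher than after PBS, by 0.29 to 5.08 on the log2 scale, while 20.7% of all genes tested rose and 26.4% fell in this comparison (47.1% in all). Arg1 stood apart in size: its rise was the sixth largest of 25317, and the next largest among the 7 genes was that of Slc7a2 at 1.16. Nos2 rose as well, by 0.52. In all 7 genes the rCNT samples did not overlap the PBS samples, as in 42.4% of all genes. The median change of the 7 genes was 0.63, against -0.04 over all genes.

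After inhalation, 3 of 7 genes were higher than in untreated lung and 3 were lower. Over all genes, 28.3% rose and 32.5% fell (60.8% in all). Slc7a2, Odc1 and Sat1 rose by 0.26 to 0.58, although for Odc1 the direction depended on the probe and on the scaling, as described below. Arg1, Nos2 and Ass1 fell by 0.40 to 0.74. Arg2 did not pass the test. The inhaled and untreated samples did not overlap in 6 of the 7 genes, against 54.8% of all genes. When each array was centred on its median in place of quantile normalisation, the share of higher genes among all calls went from 46.6% to 27.2%, and the median of all genes from -0.02 to -0.15.

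The difference of the effects, aspiration minus inhalation, passed the test in all 7 genes and was positive in 6, while 57% of all genes passed, 28.6% with a positive and 28.5% with a negative difference. It was negative for Sat1. For Arg1 it was 5.48 ± 0.18 (SE), the largest of all 25317. Under median centring the share of positive differences among all calls went from 50.1% to 69.6%, the median difference of all genes went to 0.14, and the difference for Sat1 turned to 0.14. This comparison includes any difference between PBS and untreated lung and any difference in dose.

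**Figure D1:**
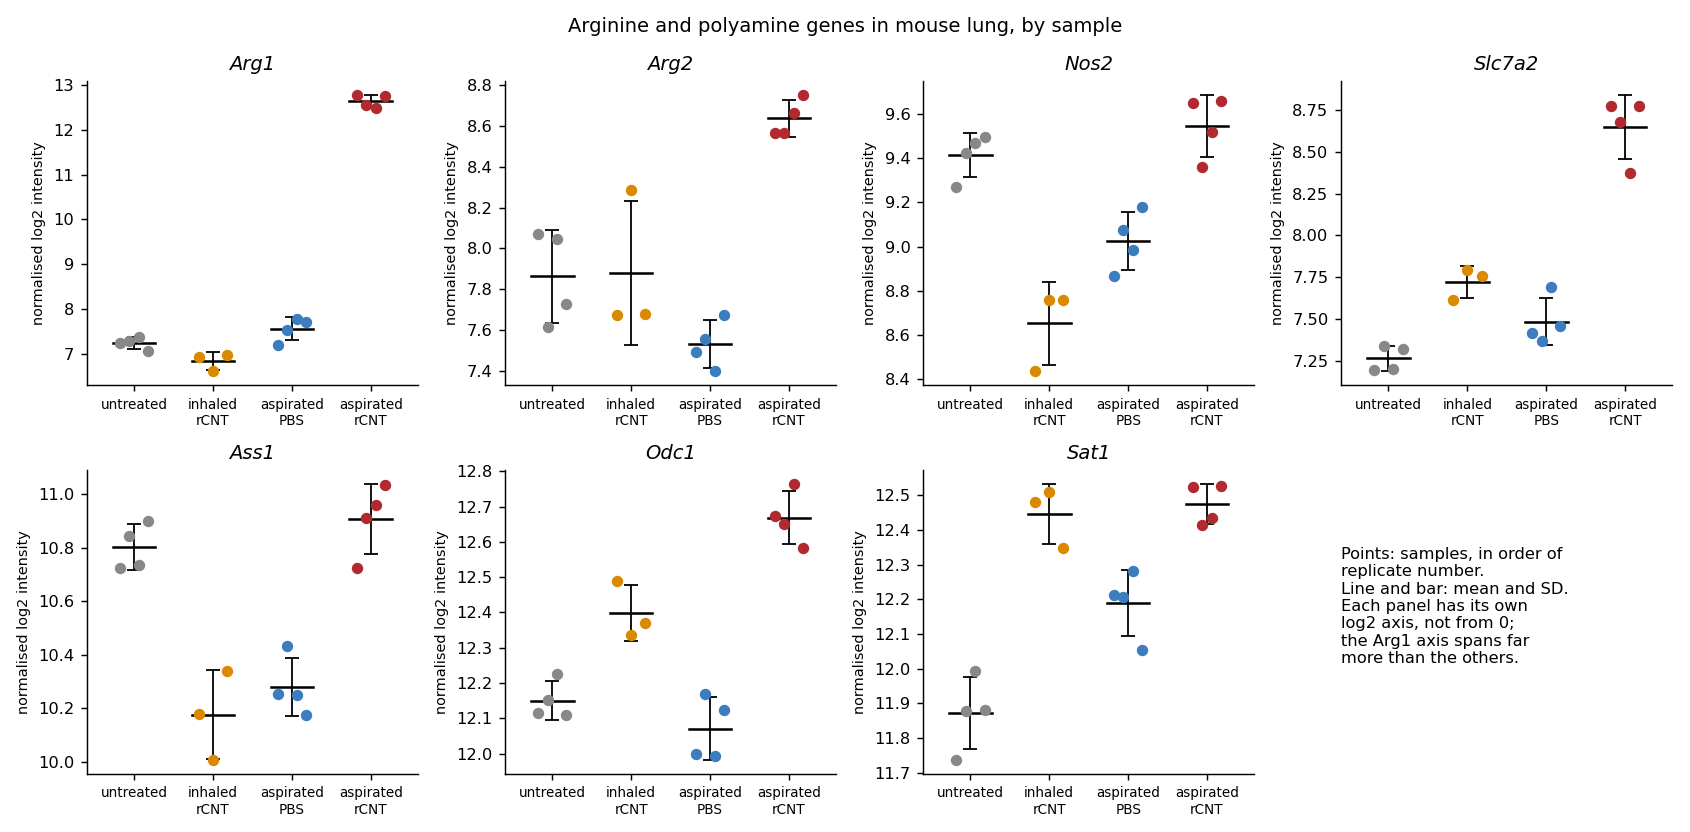
Normalised log2 intensity of the 7 genes in the 4 groups; each point is a sample, the line is the group mean and the bar its SD (n = 4, or 3 for inhaled rCNT), and each panel has its own axis. The 4 Arg1 points after aspirated rCNT lie between 12.48 and 12.77, while the 11 other samples lie between 6.61 and 7.79.

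**Figure D2:**
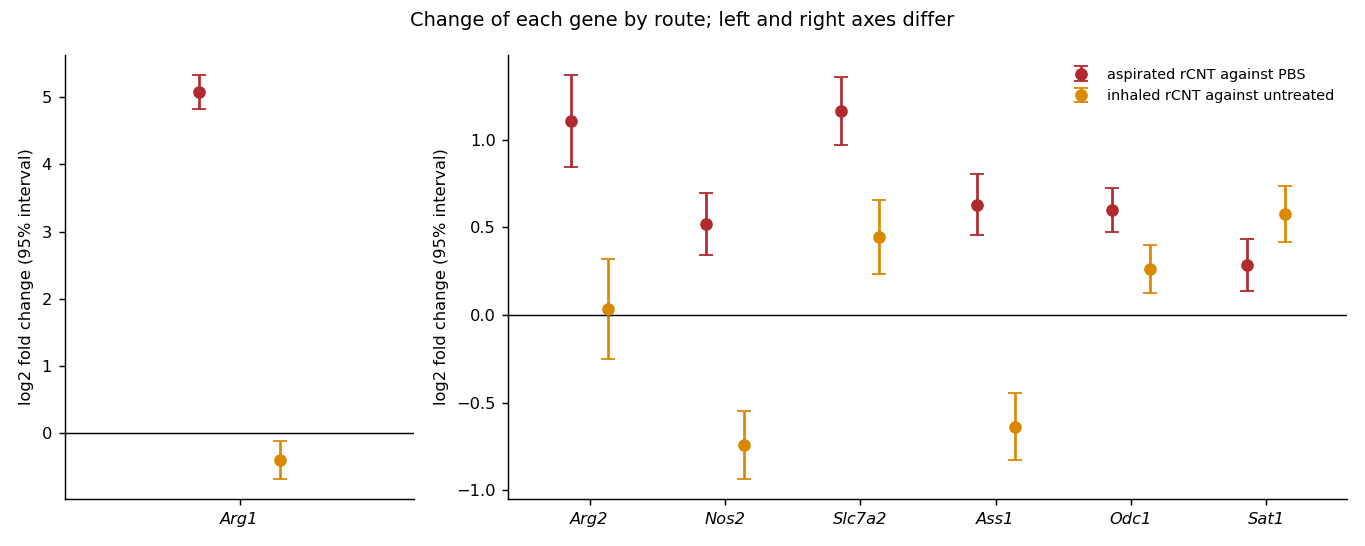
Log2 fold change of each gene with its 95% confidence interval from limma, for aspirated rCNT against PBS and for inhaled rCNT against untreated lung; Arg1 has an axis of its own. All 7 changes after aspiration lie above 0, and those of Arg1, Nos2 and Ass1 after inhalation lie below 0.

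Slc7a2 encodes CAT2, the inducible carrier that brings arginine into macrophages and other cells. Its log2 level after aspirated rCNT was 8.77, 8.68, 8.37 and 8.77 in the 4 samples, against 7.42, 7.37, 7.69 and 7.46 after PBS. In inhaled rCNT lung it was 7.61, 7.79 and 7.76, against 7.20, 7.34, 7.20 and 7.32 in untreated lung. Exposed samples were above all of their own controls by either route. The rise was 1.16 ± 0.09 (SE; 2.24-fold, 95% interval 1.96 to 2.56) after aspiration, with a limma adjusted p of 4.41e-08, and 0.44 ± 0.10 after inhalation, with an adjusted p of 0.00106. The rise after aspiration was larger by 0.72 ± 0.13 (adjusted p = 0.000279). PBS and untreated lung differed by 0.22, with an adjusted p of 0.0493. This call was lost, at 0.0517 to 0.177, under 6 other settings of the processing and without untreated replicate 1, 3 or 4, PBS replicate 3 or 4, inhaled replicate 3 or aspirated rCNT replicate 2 or 4, so the order of the controls is not settled. Inhaled rCNT lung did not pass against PBS lung (0.23, adjusted p = 0.0636), but did without PBS replicate 3, inhaled replicate 1 or aspirated rCNT replicate 3 (0.30, 0.29 and 0.23), and with loess and Aquantile (0.26).

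Arg1, the cytosolic arginase, had log2 levels of 12.77, 12.55, 12.48 and 12.75 after aspirated rCNT. After PBS it had 7.20, 7.53, 7.79 and 7.72. The lowest rCNT sample was far above the highest PBS sample, and the rise was 33.8-fold (95% interval 28.2 to 40.4; log2 5.08 ± 0.12 SE, limma adjusted p = 2.49e-13). It was 4.95 to 5.70 in all 31 alternative settings.

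By inhalation the same gene went the other way. Its level was 6.94, 6.61 and 6.98 in inhaled rCNT lung, against 7.24, 7.29, 7.38 and 7.07 in untreated lung. All 3 exposed samples were below all 4 untreated ones, by a mean of 0.40 ± 0.13 on the log2 scale (adjusted p = 0.0157). This small fall did not pass in 6 of 33 alternative settings. Without inhaled replicate 2 it was -0.24 (adjusted p = 0.160), and with slide as a block -0.32 (adjusted p = 0.0611). The 4 groups ran in the order inhaled rCNT, untreated, PBS and aspirated rCNT. PBS was above untreated by 0.32 (adjusted p = 0.0342), but these groups overlapped and the difference missed the threshold in 8 of 28 alternative settings, with adjusted p of up to 0.129. Those were loess, array weights, and the fits without untreated replicate 1, 2 or 4 or PBS replicate 2, 3 or 4 (0.32, 0.33, 0.26, 0.33, 0.23 and 0.26).

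Arg2, the mitochondrial arginase, was also higher after aspirated rCNT, but far less so. Its level was 8.57, 8.57, 8.67 and 8.75 there, and 7.49, 7.56, 7.40 and 7.67 after PBS. These groups were clearly apart, and the rise was 2.16-fold (log2 1.11 ± 0.12 SE, limma adjusted p = 2.18e-06). The inhaled samples had 7.67, 8.29 and 7.68 and the untreated ones 8.07, 7.62, 8.05 and 7.73. Replicate 2 was the one high sample among the inhaled, and the groups overlapped throughout. The difference was 0.04 ± 0.13 (95% interval -0.25 to 0.32, adjusted p = 0.832), and without inhaled replicate 2 it was -0.18. PBS lung was the lowest group, 0.33 below untreated lung (adjusted p = 0.0289), a difference that missed the threshold in 6 of 28 settings. Among them were the fits without untreated replicate 1 or 3 or PBS replicate 2 or 3 (-0.24, -0.29, -0.32 and -0.31).

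Like Arg1, Arg2, Slc7a2 and Sat1, Nos2, the inducible nitric oxide synthase, was measured by a single probe. After aspirated rCNT its log2 level was 9.65, 9.36, 9.52 and 9.66, and after PBS 8.87, 9.08, 8.98 and 9.18. The exposed samples were above all PBS samples, by 1.43-fold (95% interval 1.27 to 1.62; log2 0.52 ± 0.08 SE, limma adjusted p = 0.000101). They stood close to the untreated samples, which had 9.27, 9.42, 9.47 and 9.49 and overlapped them. PBS lung in turn was below untreated lung by 0.39 ± 0.08 (adjusted p = 0.000968), without overlap. Under median centring that difference was -0.14 (adjusted p = 0.239).

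Inhaled rCNT lung had the lowest Nos2, at 8.44, 8.76 and 8.76. Each of these was below all untreated and all PBS samples. Against untreated lung the fall was 1.67-fold (95% interval 1.46 to 1.91; log2 0.74 ± 0.09 SE below, adjusted p = 4.29e-06), and it passed in all 33 alternative settings, those within 1 slide included, where 1 arm is a single sample and the spread comes from the rest of the model. It was -0.87 within slide 2, which holds 3 untreated samples and inhaled replicate 1, and -0.80 within slide 3, which holds untreated replicate 4 and inhaled replicates 2 and 3. The aspiration effect exceeded the inhalation effect by 1.26 ± 0.12 (adjusted p = 5.57e-07).

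Arg1 and Nos2 draw on the same arginine, so the difference of their log2 values was followed within each sample. Its size depends on the brightness of the probes and says nothing of which transcript is more abundant. A constant factor in a probe's brightness cancels in its change between groups, but that change still depends on the processing. It was 3.12, 3.19, 2.97 and 3.09 after aspirated rCNT and -1.67, -1.55, -1.20 and -1.46 after PBS. The exposed samples did not overlap the controls, and the shift was 4.56 (two-sided exact permutation p = 0.0286, the smallest that 4 against 4 allows, and 0.0571 after adjustment over 2 tests). After inhalation it was -1.50, -2.15 and -1.78, against -2.03, -2.14, -2.09 and -2.42 in untreated lung. These groups overlapped, and the shift of 0.36 had an exact permutation p of 0.229, where 3 against 4 cannot go below 0.0571. With another signal or normalisation, or 1 sample left out, the shift was 4.49 to 5.12 by aspiration and 0.08 to 0.53 by inhalation. Arg1 and Nos2 both fell by inhalation, whereas by aspiration both rose and Arg1 rose much further.

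Ass1, argininosuccinate synthase, rebuilds arginine from citrulline together with Asl. Its level after aspirated rCNT was 10.73, 10.91, 10.96 and 11.04, against 10.25, 10.43, 10.25 and 10.18 after PBS. In inhaled rCNT lung it was 10.18, 10.01 and 10.34, against 10.72, 10.84, 10.74 and 10.90 in untreated lung. Aspirated rCNT and untreated lung thus formed a high pair that overlapped, and PBS and inhaled rCNT lung a low pair that overlapped too. The rise after aspiration was 0.63 ± 0.08 (1.55-fold, limma adjusted p = 1.15e-05) and the fall after inhalation 0.64 ± 0.09 (1.56-fold, adjusted p = 1.53e-05). PBS lung was 0.52 ± 0.08 below untreated lung (adjusted p = 5.48e-05). Inhaled rCNT and PBS lung did not pass a test against each other (-0.12, 95% interval -0.30 to 0.07, adjusted p = 0.289), except under median centring, which gave -0.63. Both probes of Ass1 moved alike: the second one rose by 0.61 after aspiration and changed by -0.78 after inhalation.

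Odc1, ornithine decarboxylase, makes putrescine from ornithine and so opens polyamine synthesis. Its level by the brightest probe was 12.67, 12.65, 12.77 and 12.58 after aspirated rCNT, against 12.00, 12.17, 11.99 and 12.12 after PBS. The exposed samples did not overlap the controls, and the rise was 0.60 ± 0.06 (1.51-fold, limma adjusted p = 5.78e-07). The other probes gave 0.55 and 0.60, so for aspiration the 3 probes were in accord.

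For inhalation the 3 probes of Odc1 disagreed. The brightest, A_55_P1995173, gave 12.49, 12.34 and 12.37 in inhaled rCNT lung against 12.11, 12.15, 12.23 and 12.11 in untreated lung, a rise of 0.26 ± 0.06 (adjusted p = 0.00228). Probe A_52_P436238 gave 8.92, 8.89 and 8.85 against 9.20, 9.30, 9.36 and 9.12, a fall of 0.35 ± 0.07 (adjusted p = 0.000749 over all probes). Both sets of values were free of overlap, in opposite directions. The third probe, A_55_P1982818, changed by -0.13 (adjusted p = 0.182). The mean over the 3 probes gave -0.07 (adjusted p = 0.311), and median centring turned the brightest probe to -0.13 (adjusted p = 0.311), so no direction of Odc1 after inhalation can be given. The difference between the routes was positive by all 3 probes, at 0.34 for the brightest and 0.90 and 0.73 for the others.

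**Figure D3:**
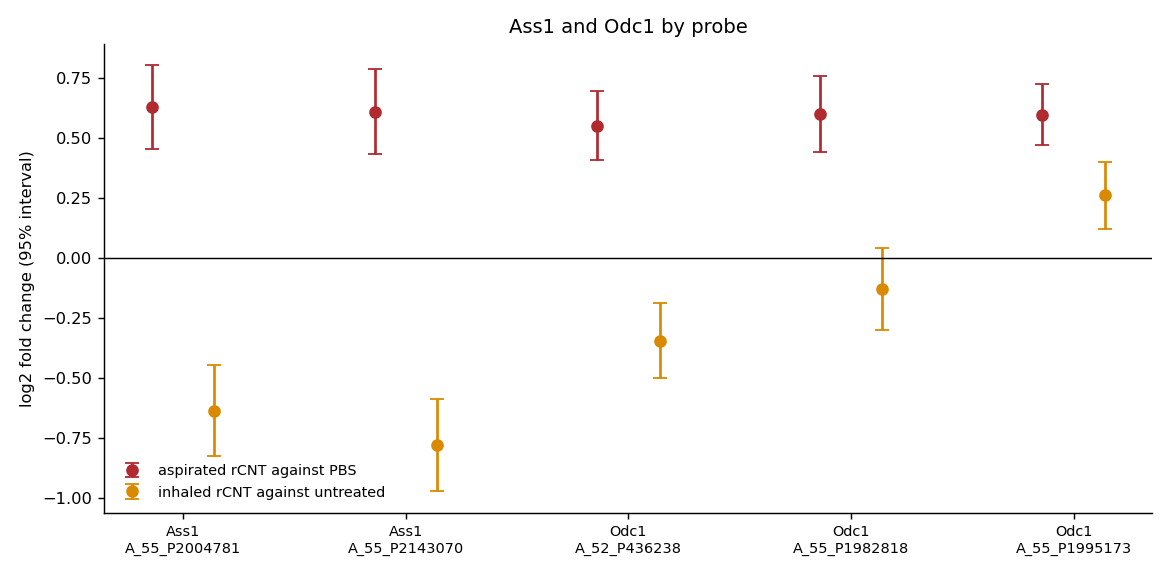
Log2 fold change with its 95% confidence interval for each of the 2 probes of Ass1 and the 3 probes of Odc1, for aspirated rCNT against PBS and inhaled rCNT against untreated lung. The 5 changes after aspiration lie between 0.55 and 0.63, whereas the changes of Odc1 after inhalation run from -0.35 to 0.26.

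Sat1, spermidine/spermine acetyltransferase, marks polyamines for breakdown and export. Its level was 12.52, 12.41, 12.43 and 12.53 after aspirated rCNT and 12.21, 12.21, 12.28 and 12.05 after PBS. It was 12.48, 12.51 and 12.35 in inhaled rCNT lung and 11.74, 11.88, 11.99 and 11.88 in untreated lung. Both exposed groups were above their own controls without overlap and overlapped each other. The rise was 0.29 ± 0.07 after aspiration (limma adjusted p = 0.00292) and 0.58 ± 0.08 after inhalation (adjusted p = 7.32e-06). PBS lung was 0.32 above untreated lung (adjusted p = 0.00101), while the exposed groups differed by 0.03 (95% interval -0.13 to 0.18, adjusted p = 0.790). Under median centring, however, aspirated rCNT lung was 0.58 above inhaled rCNT lung (adjusted p = 0.000164). The difference of the effects, aspiration minus inhalation, was -0.29 (limma adjusted p = 0.0232). It missed the threshold without untreated replicate 1 or inhaled replicate 1 or 2 (-0.24, -0.27 and -0.26). Under median centring the rise after inhalation was 0.18 and no longer passed (adjusted p = 0.183).

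Within each slide one arm of the inhalation comparison is a single sample, and the spread comes from the other samples of the same model, so the lone sample is assumed to vary as they do. On these terms the changes of Ass1 and Sat1 passed on either slide, at -0.63 and -0.69 for Ass1 and at 0.63 and 0.53 for Sat1. Slc7a2 changed by 0.32 within slide 2 (adjusted p = 0.109) and by 0.49 within slide 3. Arg1 changed by -0.37 and -0.27 and passed on neither.

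Ass1 and Sat1 went in opposite directions after inhalation while both rose after aspiration. Their upstream sequences are shown to set these promoters side by side, and whether they bear on these directions was not tested. The promoter reference held 3 of the 7 genes, Ass1, Odc1 and Sat1. Odc1 is not shown, since its stretch overlaps the gene. Each is the 250 bases before the gene's start in RefSeq, build GRCm38.p6, written 5′ to 3′ on the gene's strand, with matches to GGGCGG on either strand (CCGCCC on the opposite one) in capitals. Ass1 lies at chr2:31470020-31470269 on the plus strand and Sat1 at chrX:155216450-155216699 on the minus strand.
Ass1: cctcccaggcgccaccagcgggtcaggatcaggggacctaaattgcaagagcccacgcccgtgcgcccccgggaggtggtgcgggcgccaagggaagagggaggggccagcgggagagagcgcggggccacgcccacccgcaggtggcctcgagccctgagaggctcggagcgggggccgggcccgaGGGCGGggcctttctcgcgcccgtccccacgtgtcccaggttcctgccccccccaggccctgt
Sat1: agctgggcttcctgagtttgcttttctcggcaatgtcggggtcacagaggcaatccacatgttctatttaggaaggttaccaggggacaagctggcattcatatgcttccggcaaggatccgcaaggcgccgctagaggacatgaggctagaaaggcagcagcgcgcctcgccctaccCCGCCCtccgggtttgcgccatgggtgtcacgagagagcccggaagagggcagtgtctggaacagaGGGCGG
The Ass1 stretch held 1 such match and the Sat1 stretch 2, and 32.7% of 32851 promoters of this length held at least 1. CACGTG, the E-box read by bHLH factors, occurred once in Ass1, 0 times in Sat1 and in 6.02% of promoters. TATAAA, on either strand, was in neither and in 12.4% of promoters.

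PBS lung and untreated lung differed in most of these genes. Of the 7, 3 were higher in PBS lung (Arg1, Slc7a2, Sat1) and 3 lower (Arg2, Nos2, Ass1), against 26.2% and 33.2% of all genes (59.4% in all), and 4 did not overlap, against 49.2%. Without untreated replicate 1 the count of 6 dropped to 3, and without PBS replicate 3 it dropped to 3 as well. Set directly against each other, aspirated rCNT lung was above inhaled rCNT lung in 6 of the 7 genes, against 28% of all genes higher and 33.4% lower (61.4% in all). The same 6 did not overlap, as did 58.6% of all genes. By median centring the share of higher genes among all calls went from 44.2% to 59.2% for PBS against untreated lung and from 45.6% to 75.9% for aspirated against inhaled rCNT lung. Against PBS lung, inhaled rCNT lung was higher in 3 genes and lower in 2, against 27.5% and 27.7% of all genes (55.1% in all), and 4 to 6 genes passed over 28 alternative settings. The call for Arg2, at 0.37, was lost without PBS replicate 2 or 3 or inhaled replicate 2 (0.36, 0.34 and 0.15), with array weights (0.28) and under median centring (0.19), and that for Odc1 with the mean over its probes (0.05). In 4 of the 7 these groups did not overlap, against 51% of all genes, and median centring took its share of higher calls from 49.8% to 20.8%. With that centring the medians of all genes were 0.25 for aspirated against inhaled rCNT lung and -0.29 for inhaled rCNT against PBS lung.

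Other genes that carry arginine were mixed. Of 7 measured transport genes, 4 rose and 2 fell after aspiration, and 3 rose and 2 fell after inhalation. Over all genes tested, 20.7% rose and 26.4% fell after aspiration, and 28.3% rose and 32.5% fell after inhalation. The counts of every list below are to be read beside these shares. Slc7a1, the constitutive CAT1 carrier, rose by either route, by 0.54 ± 0.07 and 0.80 ± 0.08 (limma adjusted p = 1.70e-05 and 4.11e-07). Slc7a3, the CAT3 carrier, was 1.82 ± 0.11 higher in inhaled rCNT lung (adjusted p = 2.90e-09), where untreated lung was well above background in 1 of 4 samples, and changed by -0.19 after aspiration (adjusted p = 0.154, or 0.0404 with the 2 groups compared alone). PBS lung was itself 1.43 above untreated lung in Slc7a3 (adjusted p = 2.13e-08), and inhaled rCNT lung 0.39 above PBS lung (adjusted p = 0.00851). Slc25a13, the mitochondrial citrin carrier that supplies aspartate to Ass1, rose by 0.45 after aspiration. After inhalation it changed by -0.29, a call lost without inhaled replicate 2 (-0.19).

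Genes that support or restrain nitric oxide synthesis mostly fell. Of 11 measured, 7 fell and 2 rose after aspiration, and 8 fell and 1 rose after inhalation, with medians of -0.19 and -0.43. Gch1, which makes the first step of the synthase cofactor tetrahydrobiopterin, and Prmt1, an arginine methyltransferase named here after its values were seen, were the genes that rose after aspiration, the latter by 0.37 (limma adjusted p = 0.00036). Gch1 rose by 1.23 ± 0.07 after aspiration (limma adjusted p = 2.11e-09) and by 0.54 ± 0.08 after inhalation (adjusted p = 2.93e-05), although under median centring the latter was 0.19 (adjusted p = 0.221) and a second probe gave 0.36 and 0.15. Ddah1 and Ddah2 break down methylarginines, which inhibit the synthases. Ddah2 fell by either route, by 0.44 and 0.56, and Ddah1 changed by -0.96 after inhalation and 0.10 after aspiration (adjusted p = 0.333). Nostrin, which draws the endothelial synthase Nos3 from the membrane, fell by 0.49 and 1.22. Nos3 itself did not pass by either route, at -0.11 and 0.09.

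In the citrulline and urea cycle list, 9 of 12 genes were measured. After aspiration 4 rose and 1 fell, and after inhalation 3 rose and 5 fell. Gatm, which takes the amidino group of arginine for creatine synthesis, rose by 2.55 ± 0.07 after aspiration (limma adjusted p = 4.07e-13) and by 0.64 ± 0.08 after inhalation. Gamt, the next step to creatine, changed by -0.05 after aspiration (adjusted p = 0.531) and fell by 0.77 after inhalation. Asl, the partner of Ass1, fell by 0.82 ± 0.07 after inhalation and changed by 0.13 after aspiration (adjusted p = 0.130; 0.19, 0.15 and 0.18 and past the threshold with loess and Aquantile, with array weights and without aspirated rCNT replicate 1). Nags, which makes the activator of the urea cycle's first enzyme, rose by 1.16 after aspiration, where 1 of 4 PBS samples was well above background. In inhaled rCNT lung it was at least 1.47-fold higher, since no untreated sample was well above background. Otc and Cps1, the liver enzymes of that cycle, did not pass the filter.

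Beyond Odc1 and Sat1, polyamine genes moved both ways. Of 17 measured, 5 rose and 5 fell after aspiration, where 20.7% of all genes rose and 26.4% fell. After inhalation 3 rose and 7 fell, where 28.3% of all genes rose and 32.5% fell. The medians of the list were 0.02 and -0.05. Srm, spermidine synthase, and Eif5a, the translation factor that is modified from spermidine, rose after aspiration by 0.69 and 0.49 and fell after inhalation by 0.39 and 0.60. The differences between routes were 1.08 ± 0.12 and 1.09 ± 0.09. Azin1, which keeps antizyme off ornithine decarboxylase, rose by 0.38 after aspiration and 1.03 after inhalation, but its 2 other probes gave only 0.28 and 0.09 after inhalation. Mtap, which recycles the by-product of polyamine synthesis, changed by -0.04 after aspiration (limma adjusted p = 0.754) and fell by 1.23 ± 0.11 after inhalation.

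Signals that induce Arg1 or Nos2 were measured as lists of ligands, receptors and transcription factors. Of 12 genes of type 2 activation, 6 rose and 4 fell after aspiration, and 3 rose and 4 fell after inhalation. Il4, a cytokine that induces Arg1, rose by 2.24 ± 0.12 after aspiration (limma adjusted p = 4.36e-10) and was not well above background in any inhaled sample. For Il4, only 2 of 4 untreated samples were well above background, and its change after inhalation did not pass (limma adjusted p = 0.293). It did pass with Agilent's processed signal in place of the median signal (-0.93, limma adjusted p = 0.00697). Il13, its close relative and named here after its values were seen, was not well above background in PBS lung and at least 4.86-fold higher after aspirated rCNT. Il33, an alarm signal of epithelium, rose by 2.28 ± 0.15 and, after inhalation, by 0.97 ± 0.16. Il13ra2, a decoy receptor for Il13, changed by 0.14 after aspiration (adjusted p = 0.292) and fell by 0.81 after inhalation.

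Of 13 genes of classical activation, 10 rose and 1 fell after aspiration, with a median of 0.35, whereas 3 rose and 5 fell after inhalation, with a median of -0.14. Il6 rose by 2.88 ± 0.17 and Tnf by 1.24 ± 0.08 after aspiration (limma adjusted p = 1.26e-09 and 3.83e-09), and by 0.75 and 0.38 after inhalation. In the controls Il6 was near the limit, well above background in 1 of 4 samples of either control group, and Tnf was so in 1 of 4 untreated samples and in all 4 PBS samples, which were 0.41 above untreated lung. Irf8, an interferon-dependent factor, changed by 0.25 after aspiration (adjusted p = 0.104, but 0.00162 to 0.0446 and past the threshold with the replicate block, array weights or the 2 groups compared alone, and without untreated replicate 3 or 4) and fell by 0.59 after inhalation. Within slides 2 and 3, again with a single sample in 1 arm, the inhalation changes kept their direction without passing for Il6 (0.60 and 0.79), Srm (-0.34 and -0.33) and Slc25a13 (-0.21 and -0.32), and that of Tnf was 0.23 and 0.49 and passed on slide 3.

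**Figure D4:**
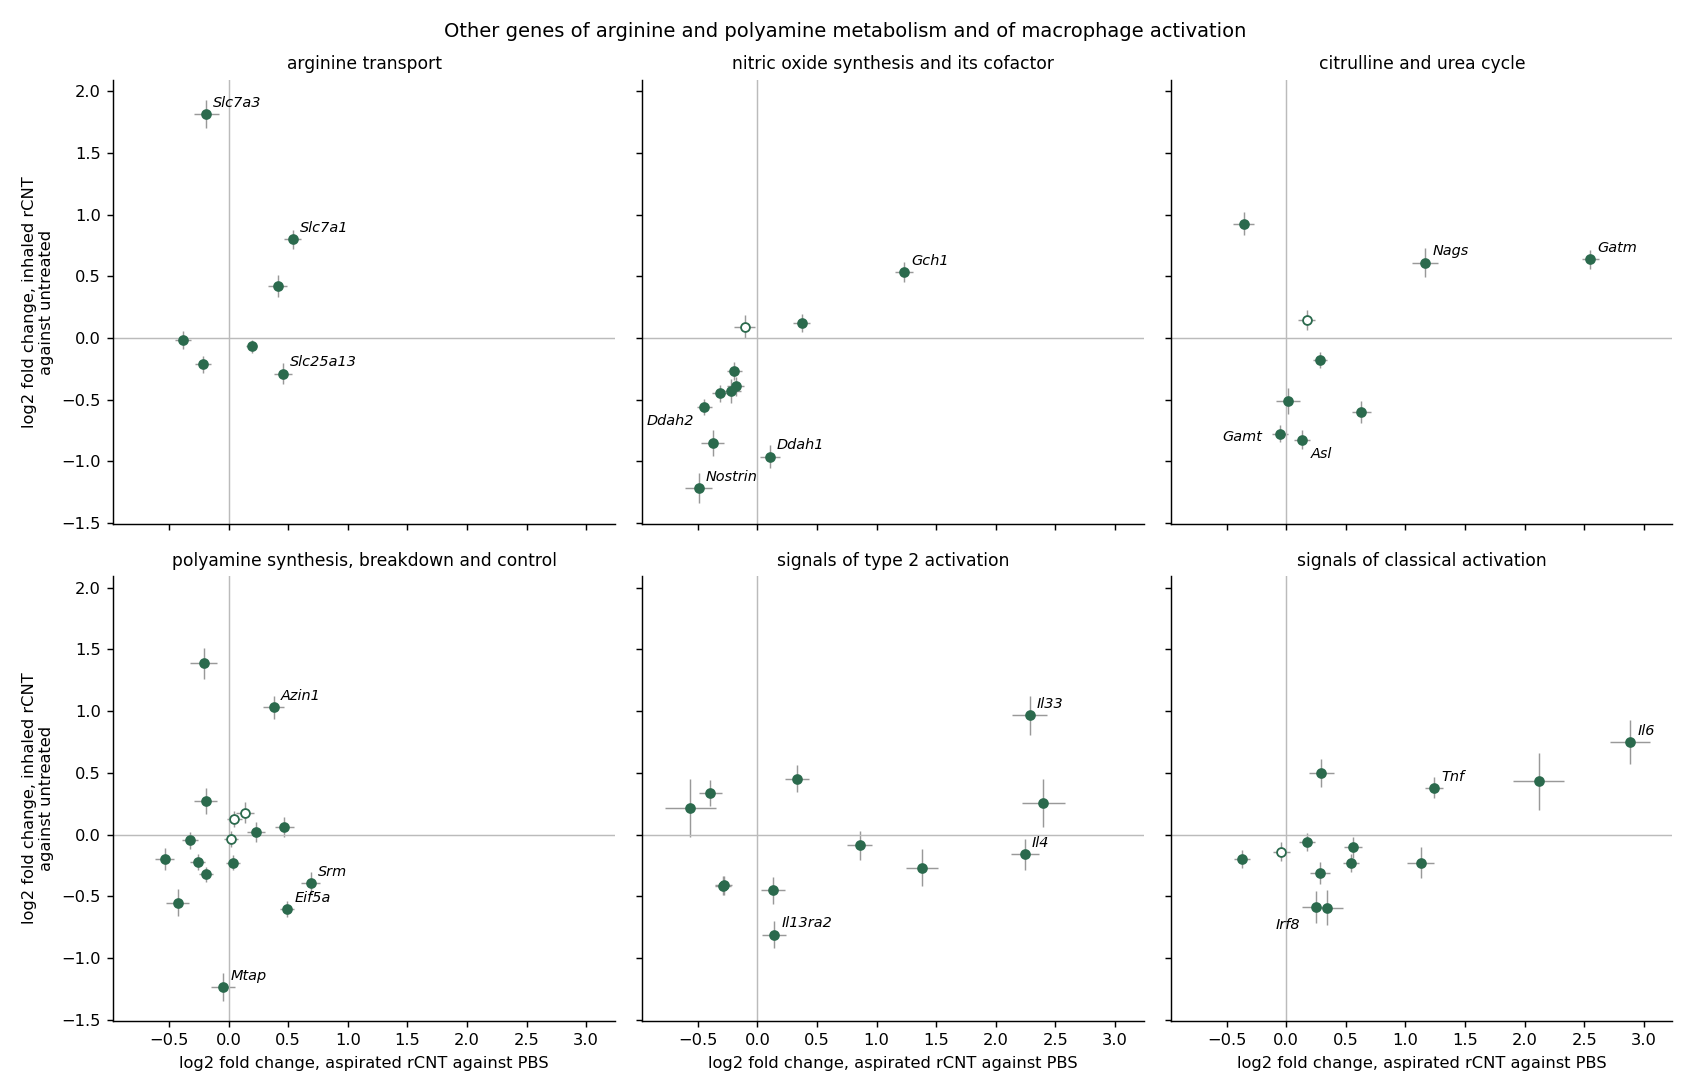
Log2 fold change after aspiration of rCNT (x axis, against PBS) and after inhalation (y axis, against untreated lung) for every measured gene of 6 lists; bars are SE, filled points passed the limma test by at least 1 route, open points by neither, and the labelled genes are those named by rule. Gatm, Il33 and Il6 lie far to the right, and Slc7a3 is the highest on the y axis at 1.82.

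Markers of cell types changed unevenly. Over all genes tested, 20.7% rose and 26.4% fell after aspiration, and 28.3% rose and 32.5% fell after inhalation. Of 10 macrophage markers measured, 8 rose and 2 fell after aspiration (median 1.42) and 4 rose and 4 fell after inhalation (median -0.10). Lyz2 and Itgam were the macrophage markers that fell after aspiration. The log2 of the summed intensity of the list was 16.7 to 16.8 after aspirated rCNT and 16.6 to 16.8 after PBS, against 16.4 to 16.5 and 16.4 to 16.7 in inhaled rCNT and untreated lung. That sum mostly reads the brightest genes of the list, Lyz2, Itgam and Csf1r. Their group means were 15.05, 14.27 and 14.85 after aspirated rCNT, against 15.63, 14.63 and 14.41 after PBS. The dimmer macrophage markers, which rose after aspiration, hardly enter it. Of 9 alveolar macrophage markers 3 rose and 4 fell after aspiration and 3 rose and 3 fell after inhalation, with sums of 18.4 to 18.7 after aspirated rCNT, 17.0 to 17.2 after PBS, 17.5 to 17.7 after inhaled rCNT and 16.8 to 17.0 in untreated lung. Chil3, a secreted chitinase-like protein, made up 80% of that sum after aspirated rCNT and 53.9% after PBS by group means and rose by 2.02, while Marco, Car4, Krt79 and Pparg fell after aspiration. Of 7 genes listed as eosinophil markers, 5 rose after aspiration (median 1.52), and 1 rose and 3 fell after inhalation. Their sums were 15.3 to 15.8, 15.2 to 15.5, 13.5 to 13.6 and 14.9 to 15.1 in the same order of groups. Most of each sum was Ear2, with group means of 15.43, 15.32, 13.43 and 14.88 against mean sums of 15.58, 15.40, 13.58 and 14.97. The 3 that fell after inhalation were Ear2, Siglecf and Ccr3, while Ear1 of the alveolar macrophage list fell by 1.99. Prg2 was not well above background in any untreated or inhaled sample. Ear2 and Siglecf were so in all 15 samples, with untreated means of 14.88 and 10.22. This list and its sum therefore cannot be taken as a measure of eosinophils alone. Of 8 neutrophil markers 4 rose and 1 fell after aspiration and 1 rose and 4 fell after inhalation, with sums of 16.3 to 16.8 over all groups. Csf3r, the receptor of a granulocyte growth factor, made up 64.8% to 93.6% of that sum by group means. After inhalation S100a8 fell by 2.63, S100a9 fell by 2.64 and Mmp9 was at least 2.32-fold lower, with no inhaled sample well above background. The part of these cells in the changes of Arg1, Nos2 and the other genes was not tested.

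Arg1 and Ass1 are also abundant in liver, and hepatocyte markers were checked for tissue carried along. Of 6 measured, 1 rose and 2 fell after aspiration and 1 fell after inhalation, and Alb was not well above background in any rCNT sample of either route. Their sum was lowest after aspirated rCNT, at 11.5 to 11.7, against 11.8 to 12.4 after PBS, 12.1 to 12.5 after inhaled rCNT and 12.0 to 12.4 in untreated lung. Of 8 T and B cell markers, 0 passed after aspiration in limma and 0 had an unadjusted p below 0.05. After inhalation 6 of them fell and 1 rose, with sums of 13.03 to 13.20 after inhaled rCNT and 13.43 to 14.81 in untreated lung. All 7 endothelial and all 4 erythroid markers measured fell by either route. The endothelial sums were 15.14 to 15.48 after aspirated rCNT, 15.97 to 16.21 after PBS, 15.53 to 15.87 after inhaled rCNT and 16.44 to 16.62 in untreated lung, and the erythroid sums 15.7 to 16.2, 17.0 to 17.5, 15.5 to 16.5 and 16.9 to 17.8. Airway epithelial markers rose in 5 of 7 by either route, while Scgb1a1, the secretoglobin of club cells, fell by 0.97 after aspiration (adjusted p = 7.52e-05) and changed by 0.04 after inhalation. In turn, alveolar epithelial markers fell in 5 of 8 after aspiration and 3 of 8 after inhalation. All 8 of the latter, among them the surfactant gene Sftpc, were well above background in all 15 samples. Of 7 muscle markers, 1 rose and 4 fell by either route, and 5 were higher in PBS than in untreated lung, with sums of 16.44 to 16.59 against 15.42 to 16.02. The part of these tissues in the changes described was not tested.

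The genes whose profiles over the 15 samples lay nearest to Arg1 were Ccl24, an eosinophil attractant, Cebpe, a factor of granulocyte maturation, Cxcl13, a B cell attractant, Chl1, an adhesion molecule, and Cxcl10, an interferon-induced chemokine. Their root mean square distance was 0.60 to 0.91 on the log2 scale after each gene was centred on its mean, where the median of 15685 genes was 2.41. Among them only Cebpe went down after inhalation as Arg1 did: it changed by 3.55 after aspiration and -0.82 after inhalation. Ccl24 changed by 5.96 and 0.84, Cxcl13 by 4.04 and 0.03, Chl1 by 3.89 and 0.91, and Cxcl10 by 4.48 and 0.89. Nearest to Nos2 were Ssr2, Pcsk5, Tgfb1, Itgb1bp1 and Kctd20, at 0.08 to 0.13, where the median gene was at 0.42. Ssr2, a subunit of the translocon-associated complex, changed by 0.52 and -0.73, and Tgfb1, the growth factor of fibrosis, by 0.45 and -0.75. These distances describe the profiles of the same samples that the comparisons use.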

How the data were processed

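RNA of 15 lung samples was hybridised to 14 two-colour Agilent arrays, with inhaled rCNT replicate 2 and untreated replicate 4 on the same array. Per the file headers, the deposited intensity values were extracted with Agilent Feature Extraction 11.0.1.1 for a design on build mm9, and the submitters' processing notes name limma. The deposited series table was taken as log2 values. Its columns correlated at 0.998 to 1.00 with the sample's own channel and 0.980 to 0.995 with the other, with medians of 6.58 to 6.59. Its log base, background correction and centring are unknown, so it was only an alternative.

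Each sample's own channel (median signal and local background) was background-corrected by the normexp method with an offset of 50. Its log2 values were then quantile-normalised across all 15 samples. Control spots and spots with an outlier mark (106 to 154 per sample) were left out. No spot was saturated, 54.6% to 64.7% were well above background, and the median brightness was 56.5 to 149.5. Precision is limited by how many arrays there are. Probes well above background in 3 or more samples of any group were kept (34271 of 55681). Of 28685 probes with a RefSeq accession, 27235 matched a symbol. A gene was represented by its brightest probe on average. "At least" folds divide the brighter group's mean by the dim group's, with no dim sample set below the detection limit of its array, which is the lowest probe there that was well above background.

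One limma 3.58.1 model in R 4.3.3 held the 4 groups and the dye as terms and took in all 15 samples (two-sided tests). On simulated data for 25299 genes it recovered 83% of changes of 0.5 and 99% of changes of 1 (log2) for aspiration, and 75% and 98% for inhalation. There only 100 genes changed by 0.5 and 100 by 1, with normal scatter around normalised values. In the real data 47.1% and 60.8% of genes passed, so the rates may differ there. Effects of the normalisation were not simulated. Alternatives covered signal, background, normalisation, filter, probe rule, dye, slide, replicate number, weights, variance, samples in the fit and leaving out each sample. Deviations of same-numbered samples from their group means correlated at -0.43 to -0.08 (aspiration) and -0.06 to 0.08 (inhalation). The dye was not taken out of these deviations, and in aspiration each same-numbered pair carried opposite dyes. Whether the replicate numbers pair the samples therefore cannot be told from them.

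The 7 genes and all lists were chosen with earlier results of these data known. Genes named from the pathway lists are the 2 with the smallest p per list and route, and for Arg1 and Nos2 the 5 nearest profiles. A gene of these lists is not reported here. Of the 21 genes so named, 5 had other probes that passed the filter, 6 in all, and none of these changed in the opposite direction with an adjusted p below 0.05. A 40 µg dose and lavage samples that the series' design mentions are not analysed here.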

Additional observations from a re-analysis of the deposited data

Results flagged for a closer look

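A test of the difference between the routes, aspiration minus inhalation, passed for all 7 genes, with 57% of all genes passing. The log2 differences were 5.48 for Arg1, 1.07 for Arg2, 1.26 for Nos2, 0.72 for Slc7a2, 1.27 for Ass1, 0.34 for Odc1 (0.90 and 0.73 by its other probes) and -0.29 for Sat1. The one for Sat1 had an adjusted p of 0.0232 in limma, and without untreated replicate 1, inhaled replicate 1 or inhaled replicate 2 it missed the threshold (-0.24, -0.27 and -0.26).

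Of the 21 other pathway genes named, 19 had a sample well above background in every group, and 18 of these passed the same test. They were named for their small p by one route or the other, a choice that itself favours such a difference. Over all 69 measured genes of the 6 lists 46 passed (66.7%). No difference is given for Nags and Il4, since no untreated sample for Nags and no inhaled sample for Il4 was well above background. The difference was positive for Slc25a13 (0.74), Gch1 (0.69), Ddah1 (1.06), Nostrin (0.72), Asl (0.96), Gatm (1.91), Gamt (0.72), Srm (1.08), Eif5a (1.09) and Mtap (1.19). It was also positive for the signals Il33 (1.31), Il13ra2 (0.95), Tnf (0.86), Il6 (2.13) and Irf8 (0.84). It was negative for Slc7a1 (-0.26), Slc7a3 (-2.004) and Azin1 (-0.65). Ddah2 did not pass (0.11, adjusted p = 0.297). No sample stood apart from its group of 4 in any of the 21 sets of values tested for this with Dixon's ratio at 0.829. The inhaled rCNT group, with 3 samples, was not tested for this. In that group Arg2 was 8.29 in replicate 2 against 7.67 and 7.68 in the others. Likewise, Nos2 there was 8.44 in replicate 1 against 8.76 and 8.76.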

How the results depend on the processing

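The number of the 7 genes that passed was 7 after aspiration in all 31 alternative settings, 4 to 6 after inhalation over 33, 6 to 7 for the difference between routes over 30, 4 to 6 for inhaled rCNT against PBS lung, 6 to 7 for aspirated against inhaled rCNT and 3 to 6 for PBS against untreated lung, each over 28. That last count was 3 without untreated replicate 1 and 3 without PBS replicate 3. Over the 7 genes, 1178 of 1246 recomputed values kept their direction and side of the threshold, 48 lost the call, 6 gained it and 14 turned sign.

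Signs turned as follows. Under median centring, Arg2 after inhalation was -0.00158 and Odc1 -0.131, the difference between routes for Sat1 was 0.137, Odc1 in PBS against untreated lung was 0.0448, and against PBS lung inhaled rCNT lung had -0.176 for Odc1 and -0.265 for Sat1. The mean over probes gave -0.0715 for Odc1 after inhalation. Arg2 after inhalation was -0.0629 with array weights, -0.181 within slide 2 and -0.18 to 0.143 with 1 sample left out, below 0 without untreated replicate 2 or inhaled replicate 2. Sat1, aspirated against inhaled rCNT, was -0.0178 with loess and Aquantile and -0.0207 to 0.0577 with 1 sample left out, below 0 without inhaled replicate 3 or aspirated rCNT replicate 4. Mtap after aspiration was 0.00573 with loess and Aquantile and -0.138 to 0.0305 with 1 sample left out, above 0 without PBS replicate 4 or aspirated rCNT replicate 3. The cause was not tested.

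The shift of Arg1 minus Nos2 after aspiration was 4.49 to 4.65 when 1 sample was left out, where 3 against 4 cannot reach the threshold. With the replicate block, 7 genes passed after aspiration, 6 after inhalation and 6 for the difference, since Sat1 was lost there (-0.29, adjusted p = 0.0812). The shared array as a random block could not be fitted, because a single pair of samples shares an array. With 3 or 4 samples a group, precision is limited by the number of arrays.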
